A study of Mus musculus with 18 samples.

Results

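Igfbp4, Rgcc, Ramp1, Tmie, Dapl1, Trib2, Ggt1 and Matk are 8 genes of mouse CD8 T cells, taken by symbol from a table of 46983 genes and chosen by their fall in memory cells of these same libraries. The values of memory against naive cells that selected them are described here without a test. The choice was not made on the comparison of genotypes within naive cells and within memory cells, and that is tested. It drew on the levels of the same libraries, however, so these tests are not fully independent of it. Whether the size of the fall differed between genotypes was also tested, on the values that selected the genes. All 8 passed the filter on low values, which kept 9437 genes.

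RNA sequencing was done on 18 libraries of CD8 T cells, sorted as naive (low surface CD44) or memory-phenotype (high surface CD44). Memory and naive cells were each taken from Dock2-Hsd/Hsd mice, which the labels also write Dock2-/- (5 libraries of each cell state), and from wild-type mice (4 of each). Dock2 activates the GTPase Rac in blood cells, and the Hsd allele is carried in the whole animal. The strain field gave C57BL/6J for all libraries, whereas the sample descriptions named C57BL6J for wild type and C57L6NHsd for the mutants, so a substrain difference cannot be told apart from genotype. No treatment, age or pooling was given.

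Naive CD8 T cells have left the thymus without yet meeting antigen and recirculate in a resting state. Memory-phenotype cells carry memory surface markers, and in unimmunised mice many of them arise without infection. The naive state has its own set of transcribed genes, among them homing receptors and genes whose role in T cells is little known. The 8 genes do not form a pathway. Igfbp4 encodes a secreted binding protein that holds insulin-like growth factors away from their receptor. Ramp1 encodes the single-pass subunit that makes the receptor Calcrl a receptor for the neuropeptide CGRP. Tmie is known as a component of the mechanotransduction channel of inner ear hair cells. Ggt1 encodes a surface enzyme that cleaves extracellular glutathione. Matk and Trib2 encode a kinase that phosphorylates the inhibitory tail site of Src family kinases and a pseudokinase that targets C/EBP proteins for degradation. Rgcc is a cell cycle regulator induced by complement, and Dapl1 a small protein related to the death-associated protein Dap.

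Values are normalized expected counts, that is, estimated reads per gene scaled between libraries by the authors. Depth was 2215987 to 8257768 expected reads per library, of which the ribosomal RNA gene Rn18s-rs5 took 37.0% to 69.4%. Among memory libraries, number 5 of Dock2-deficient mice stood apart on the first principal component (82.8 from the centre, others at most 62.6) and number 4 of wild type on the second (113.9, others at most 31.7). They held the lowest and the highest of these shares. Dock2 itself averaged 184 ± 83.4 in Dock2-deficient memory (SD, n = 5) and 537 ± 206 in wild-type memory libraries (SD, n = 4), and 243 ± 88.5 in Dock2-deficient naive (SD, n = 5) and 388 ± 101 in wild-type naive libraries (SD, n = 4). Neither difference passed limma's test (adjusted p = 0.121 and 0.841), so the RNA checks the labels only in direction. The 6 CD8 T cell markers, Cd8a among them, summed to 5421 or more in every library, and the CD4 T cell, B cell and myeloid lists to at most 27.95, 41.3 and 11.5. Platelet and erythroid markers reached 162 in a Dock2-deficient naive library and at most 20.9 in memory libraries. Cd44, the gene of the sorting marker, averaged 194 in Dock2-deficient memory against 5.99 in Dock2-deficient naive libraries, and 193 in wild-type memory against 6.61 in wild-type naive libraries. All wild-type libraries and Dock2-deficient library 1 of each cell state read as female from Xist (1820 or higher), whereas Dock2-deficient libraries 2 to 5 read as male (Xist at most 5.44).

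Igfbp4 (ENSMUSG00000017493; chromosome 11, 99041244 to 99054392, plus strand, mm10) had the highest naive counts of the 8 genes. It was 7.54, 10.5, 21.0, 11.4 and 20.8 in the Dock2-deficient memory libraries, against 355, 264, 261, 511 and 484 in the Dock2-deficient naive libraries. In wild type it was 37.7, 17.9, 17.3 and 45.02 in the memory libraries, against 356, 336, 474 and 456 in the naive libraries. Every memory library was thus far below every naive library, and memory cells kept 3.80% of the naive mean in Dock2-deficient mice and 7.27% in wild type. The log2 fold changes, taken on values + 1 as throughout, were -4.66 ± 0.31 and -3.84 ± 0.35 (SE). In bulk libraries fewer cells expressing a gene and less RNA per cell cannot be told apart.

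The 250 bases before the RefSeq start of 3 of the genes are shown because they differ in kind: that of Igfbp4, the most abundant member, that of Dapl1, and that of Tmie, which lies inside a neighbouring gene described later. They come from RefSeq on GRCm38.p6, run from 5′ to 3′ on the gene's own strand and end at the base before the start. Capitals mark matches to any of 7 motifs searched on both strands.
Igfbp4, chr11:99040994-99041243, plus strand: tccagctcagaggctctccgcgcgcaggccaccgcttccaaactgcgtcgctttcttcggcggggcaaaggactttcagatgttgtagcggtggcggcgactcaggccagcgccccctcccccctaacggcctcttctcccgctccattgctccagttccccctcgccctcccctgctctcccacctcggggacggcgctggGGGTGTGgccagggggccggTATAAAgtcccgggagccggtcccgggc
Dapl1, chr2:59484403-59484652, plus strand: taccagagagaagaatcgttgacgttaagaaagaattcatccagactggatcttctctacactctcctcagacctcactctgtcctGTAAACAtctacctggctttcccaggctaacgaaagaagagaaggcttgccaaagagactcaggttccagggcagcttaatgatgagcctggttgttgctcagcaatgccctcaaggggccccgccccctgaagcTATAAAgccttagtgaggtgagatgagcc
Tmie, chr9:110880074-110880323, minus strand: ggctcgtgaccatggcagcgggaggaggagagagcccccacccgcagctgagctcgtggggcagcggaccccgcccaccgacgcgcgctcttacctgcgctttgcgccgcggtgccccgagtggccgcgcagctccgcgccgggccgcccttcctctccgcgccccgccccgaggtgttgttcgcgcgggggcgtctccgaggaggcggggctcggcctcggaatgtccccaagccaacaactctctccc

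The Igfbp4 window held a KLF motif (GGGTGTG) and a TATA box (TATAAA) that began 48 and 28 bases before the start. That of Dapl1 held a FOXO motif (TGTTTAC, here on the reverse strand) and a TATA box that began 164 and 29 bases before it, and that of Tmie held none of the 7 motifs. Of 32851 RefSeq windows of this length, 6.93% held the KLF, 12.4% the TATA box and 3.17% the FOXO motif. RefSeq gave 12 such windows for the 8 genes, 4 of them for Ggt1. The TCF and LEF motif (CTTTGA, 13.8% of all windows) was found in 2 and the RUNX (TGTGGT, 14.05%) and ETS (CAGGAAG, 10.8%) motifs in 1, in each case a window of Ggt1. The T-box motif (AGGTGTGA, 1.12%), which shares letters with the KLF motif, was found in 0 of the 12. The windows of Tmie and Trib2 were rich in G and C (74.8% and 73.6%, with 33 and 34 CpG, against medians of 52.4% and 6), whereas that of Dapl1 had 4 CpG.

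Rgcc (ENSMUSG00000022018; chromosome 14, 79288756 to 79301645, minus strand) had memory levels close to one another in the 2 genotypes. It was 19.5, 11.1, 12.03, 9.36 and 10.6 in the Dock2-deficient memory libraries, against 118, 116, 94.2, 207 and 144 in the Dock2-deficient naive ones. In wild type it was 8.29, 10.1, 11.6 and 13.99 in the memory libraries, against 134, 150.1, 191 and 180 in the naive ones. The lowest naive library stood 4.82-fold above the highest memory library in Dock2-deficient mice and 9.57-fold in wild type. The log2 fold changes were -3.33 ± 0.25 and -3.79 ± 0.28 (SE).

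Ramp1 (ENSMUSG00000034353; chromosome 1, 91179822 to 91225196, plus strand) followed Rgcc more closely than any other gene of the 8. It was 19.5, 8.64, 17.2, 17.9 and 20.3 in the Dock2-deficient memory libraries, against 151, 126, 93.7, 168 and 194 in the Dock2-deficient naive ones. The wild-type memory libraries held 13.3, 13.2, 19.3 and 15.7, against 185, 174, 141 and 167 in the wild-type naive ones. The groups did not overlap in either genotype, and memory cells kept 11.4% and 9.23% of the naive mean (log2 fold changes -3.07 ± 0.25 and -3.36 ± 0.28, SE). Calcrl, the receptor with which Ramp1 pairs, averaged 30.3 ± 9.68 in Dock2-deficient memory and 56.6 ± 35.7 in Dock2-deficient naive libraries (SD, n = 5 each), and 53.4 ± 25.5 in wild-type memory and 52.5 ± 29.9 in wild-type naive libraries (SD, n = 4 each). No gene of the CGRP and adrenomedullin receptor list passed limma's test in any comparison (3 of 10 tested, namely Calcrl, Crcp and Gnas).

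Tmie (ENSMUSG00000049555; chromosome 9, 110865711 to 110880113, minus strand) was the member whose fall differed most between the genotypes. It was 10.7, 12.3, 15.5, 7.66 and 7.08 in the Dock2-deficient memory libraries, against 38.2, 56.4, 53.6, 48.9 and 41.8 in the Dock2-deficient naive ones. In wild type it was 0, 1.26, 1.29 and 0 in the memory libraries, against 42.4, 54.2, 39.1 and 44.0 in the naive ones. Naive levels of the 2 genotypes overlapped, whereas every Dock2-deficient memory library lay above every wild-type memory library. The log2 fold changes of memory against naive cells were -2.10 ± 0.33 and -4.92 ± 0.37 (SE), and ran between -2.41 and -1.49 and between -6.91 and -2.36 over 30 alternatives, the extremes of the wild-type value coming with 0.1 and 10 added in place of 1.

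Dapl1 (ENSMUSG00000026989, chromosome 2, 59484653 to 59505020, plus strand) kept more of its RNA in memory cells than Igfbp4, Rgcc and Ramp1 in both genotypes. It was 17.8, 22.2, 25.8, 15.3 and 41.6 in the Dock2-deficient memory libraries, against 99.1, 65.2, 111, 176 and 148 in the Dock2-deficient naive ones. Wild-type levels were 31.5, 27.7, 45.1 and 37.6 in the memory libraries, against 88.1, 105, 161 and 132 in the naive ones. Memory cells thus held 20.4% and 29.2% of the naive mean (-2.25 ± 0.29 and -1.73 ± 0.32, SE). Of the listed genes with death-associated names, Dapk2, a kinase, was higher in memory cells. It averaged 14.4 ± 9.17 in Dock2-deficient memory and 0.642 ± 1.43 in Dock2-deficient naive libraries (SD, n = 5 each, with a log2 fold change of 3.37 ± 0.59 and adjusted p = 0.00129 in limma). In wild type it averaged 14.1 ± 3.64 in memory libraries and was listed at 0 in all 4 naive libraries (adjusted p = 9.09e-04). Dap, an inhibitor of autophagy, rose by 0.90 in Dock2-deficient memory cells (adjusted p = 0.0383), and its difference of 0.94 in wild type missed the threshold (adjusted p = 0.0595).

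Trib2 (ENSMUSG00000020601; chromosome 12, 15791727 to 15816922, minus strand) was 12.4, 22.2, 30.9, 25.5 and 25.7 in the Dock2-deficient memory libraries, against 104, 63.9, 93.2, 95.4 and 124 in the Dock2-deficient naive ones. Wild-type memory libraries held 62.2, 44.1, 45.1 and 13.99 of it, against 210, 168, 110.4 and 107 in the naive ones. The lowest wild-type memory value was that of library 4, which stood apart on the second principal component. The groups did not overlap in either genotype, and the log2 fold changes were -2.02 ± 0.34 and -1.94 ± 0.38 (SE). Of its family and partners, 3 of 7 were tested (Trib1, the ubiquitin ligase component Fbxw7 and Rfwd2, the ligase Cop1) and none passed limma's test in any comparison.

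Ggt1 (ENSMUSG00000006345; chromosome 10, 75561604 to 75586200, plus strand) was 33.7, 25.9, 22.3, 40.01 and 45.1 in the Dock2-deficient memory libraries, against 140.02, 132, 125, 153 and 129 in the Dock2-deficient naive ones. In wild type it was 28.2, 9.45, 6.45 and 28.0 in the memory libraries, against 84.2, 79.6, 43.3 and 71.1 in the naive ones. Memory cells kept 24.6% and 25.9% of the naive mean (-2.04 ± 0.33 and -2.10 ± 0.37, SE), and at both stages the Dock2-deficient mean was the higher one.

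Matk (ENSMUSG00000004933; chromosome 10, 81252935 to 81263365, plus strand) had the smallest change of the 8 in Dock2-deficient mice. It was 21.3, 12.3, 17.2, 11.9 and 23.9 in the Dock2-deficient memory libraries, against 72.7, 36.7, 33.8, 61.0 and 53.8 in the Dock2-deficient naive ones. Wild-type levels were 16.6, 11.3, 7.73 and 7.87 in the memory libraries, against 50.7, 47.0, 36.3 and 22.6 in the naive ones. The nearest memory and naive libraries were 1.41-fold apart in Dock2-deficient mice and 1.36-fold in wild type (-1.51 ± 0.32 and -1.76 ± 0.35, SE). None of the 10 tested genes of the Src family list, which holds the related kinase Csk and its substrate Lck, passed limma's test in any comparison. Csk averaged 184 ± 34.7 in Dock2-deficient memory and 187 ± 38.1 in Dock2-deficient naive libraries (SD, n = 5 each), and 189 ± 37.4 in wild-type memory and 180 ± 32.5 in wild-type naive libraries (SD, n = 4 each).

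**Figure D1:**
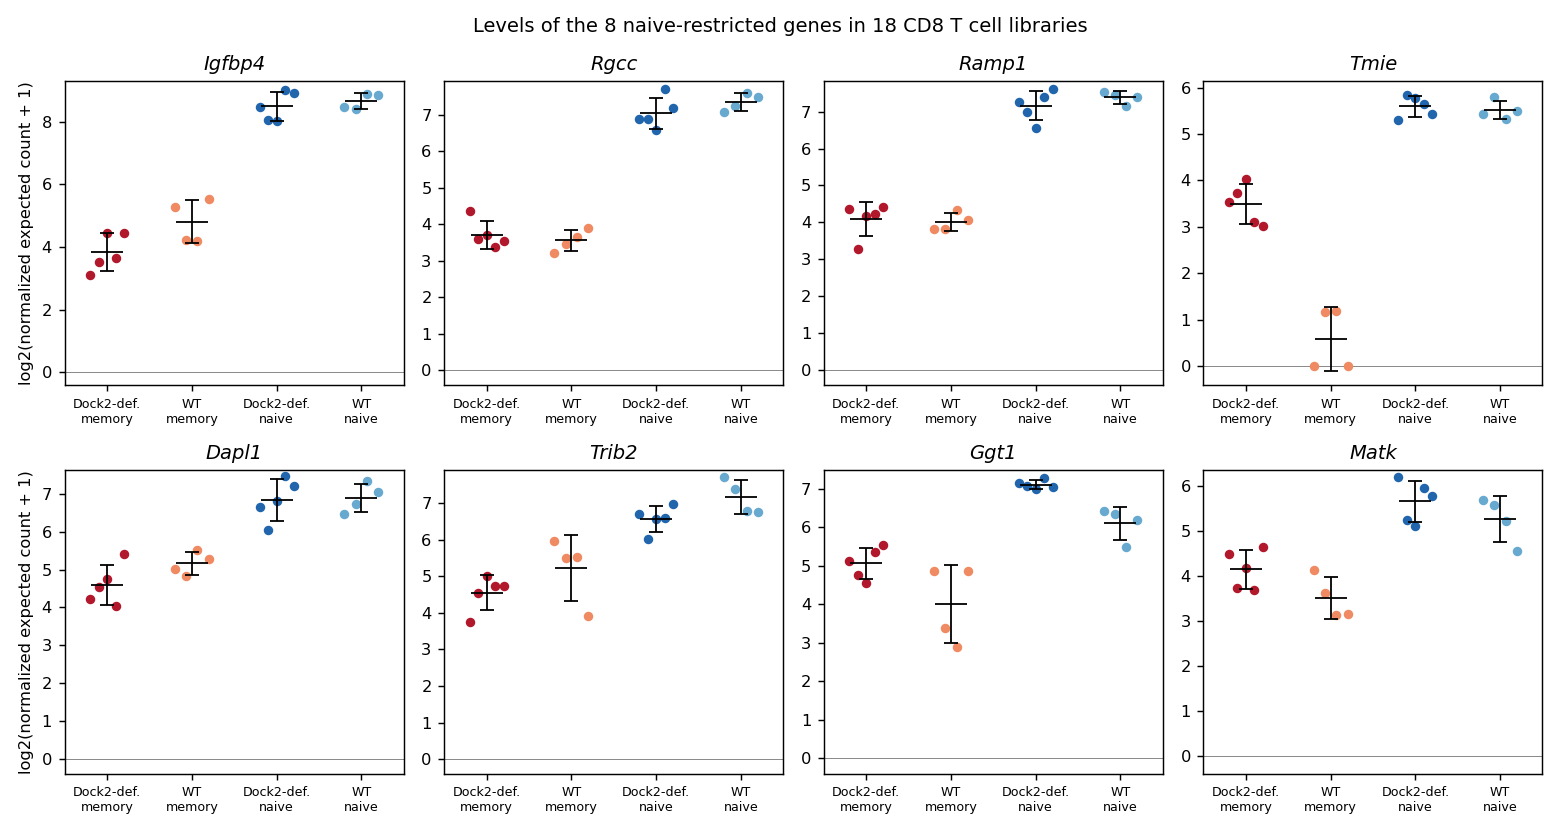
Level of each of the 8 genes on a log2 axis (normalized expected count + 1), with 1 point per library and the mean ± SD of the log2 values, in 5 Dock2-deficient and 4 wild-type libraries of each cell state. Memory libraries lie below naive libraries of the same genotype for every gene, and Tmie is the gene whose 2 memory groups do not overlap.

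All 8 genes were lower in memory cells with groups that did not overlap, in Dock2-deficient mice (1.58% of tested genes) and in wild type (3.27% of tested genes). These counts describe how the genes were chosen. The median log2 fold change of the 8 was -2.18 in Dock2-deficient mice and -2.73 in wild type, against -0.01 and -0.02 over all tested genes.

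**Figure D2:**
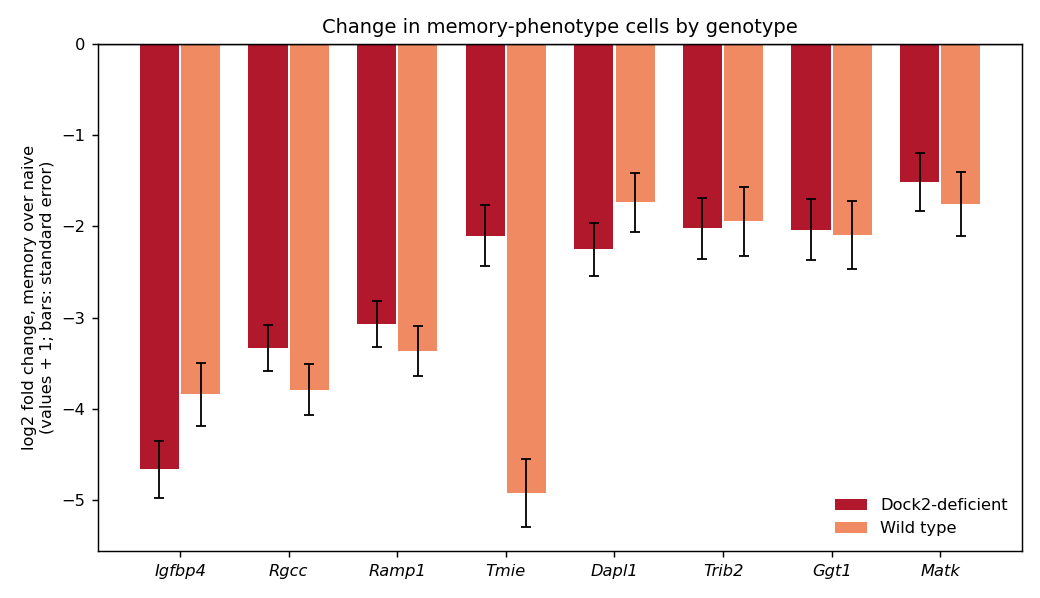
Log2 fold change of memory over naive cells (values + 1) for each gene, in Dock2-deficient and in wild-type mice, with standard errors from limma. Igfbp4 has the largest fall in Dock2-deficient mice (-4.66) and Tmie in wild type (-4.92), where its memory level rests on 3 reads and where, with 10 added in place of 1, Tmie is at -2.36 and Igfbp4 at -3.45.

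Per kilobase of annotated exon, the naive levels ran in another order than the counts. In Dock2-deficient naive cells Dapl1 had 177 ± 63.8, Rgcc 148 ± 47.4, Igfbp4 84.9 ± 26.8, Ramp1 48.5 ± 12.8, Ggt1 39.9 ± 3.21, Trib2 22.2 ± 5.04, Tmie 15.4 ± 2.49 and Matk 11.2 ± 3.57 normalized expected counts per kilobase (SD, n = 5). In wild-type naive cells Dapl1 had 179 ± 46.9, Rgcc 178 ± 28.8, Igfbp4 91.8 ± 15.8, Ramp1 55.2 ± 6.15, Trib2 34.3 ± 11.4, Ggt1 20.4 ± 5.37, Tmie 14.5 ± 2.11 and Matk 8.52 ± 2.74 per kilobase (SD, n = 4). The small genes Dapl1 and Rgcc were thus the most abundant per length, and the order of Ggt1 and Trib2 turned round between the genotypes.

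Across the 4 groups, Igfbp4, Rgcc, Ramp1, Dapl1 and Trib2 were highest on average in wild-type naive cells, followed by Dock2-deficient naive cells, with overlapping libraries. Tmie, Ggt1 and Matk were highest in Dock2-deficient naive cells. For Igfbp4, Dapl1 and Trib2 the lowest mean was that of Dock2-deficient memory cells, and for the other 5 genes that of wild-type memory cells. The neighbouring groups in this order that did not overlap, other than a naive group and a memory group, were the 2 memory groups for Tmie and the 2 naive groups for Ggt1. For Ggt1 and Matk, wild-type naive libraries and Dock2-deficient memory libraries overlapped.

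Whether the genes depended on genotype was tested within each cell state by limma over all 9437 genes. In naive cells none of the 8 passed, and 13 of the tested genes did (0.138%; 576 genes had an unadjusted p under 0.05, Ggt1 among them). Ggt1 averaged 136 ± 10.9 in Dock2-deficient naive cells (SD, n = 5) and 69.6 ± 18.3 in wild-type naive cells (SD, n = 4), with groups that did not overlap, which was so for 1.46% of tested genes in that direction. This log2 difference of 0.999 ± 0.355 (SE) missed the threshold (adjusted p = 0.565), and its 95% interval ran between 0.26 and 1.74. The 6 memory CD8 T cell markers summed to 450 to 1018 in Dock2-deficient naive and 281 to 464 in wild-type naive libraries. Most of that sum was Il2rb, which averaged 456 and 310. Of the others, Cxcr3 averaged 55.3 and 4.11, Tbx21 49.2 and 7.44, and Ccl5 46.4 and 3.29. Eomes averaged 24.9 and 10.8, and Cd44, the gene of the sorting marker, 5.99 and 6.61. The 4 gamma delta T cell markers summed to 19.5 to 45.7 in Dock2-deficient naive and 3.63 to 5.65 in wild-type naive libraries. Nearly all of that sum was Trdc (32.8 and 3.98 on average), while Sox13 averaged 0.364 and 0.551, Blk 0.182 and 0, and Zbtb16 0.184 and 0. The thymocyte markers summed to 0 to 12.3 in Dock2-deficient naive and 6.74 to 17.3 in wild-type naive libraries. The part of these markers in the Ggt1 difference was not tested. The female-reading Dock2-deficient library 1, at 140.02, lay within the range of the 4 male-reading libraries (125 to 153). Of the other 7, Trib2 had the largest difference (-0.60 ± 0.36, adjusted p = 0.909), and the 95% intervals of Igfbp4, Rgcc, Ramp1, Tmie, Dapl1 and Matk all reached across 0 and stayed within -0.86 and 1.09.

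In memory cells Tmie passed, and it had the smallest p of all 9437 genes, of which 5 passed (0.053%). Tmie was among the tested genes through its naive libraries: 3 of the 9 memory libraries reached the minimum of 10, and with the compared libraries alone it fell below the filter and was not tested. Tmie averaged 10.6 ± 3.46 in Dock2-deficient memory cells (SD, n = 5) and 0.637 ± 0.736 in wild-type memory cells (SD, n = 4), with a log2 fold change of 2.90 ± 0.35 (SE, adjusted p = 3.82e-04). It was higher in 5 of 5 Dock2-deficient libraries than in any wild-type library, which was so for 2.06% of tested genes. These levels are low: the Dock2-deficient memory libraries held 42 expected reads of Tmie in all, 6 to 10 in a library, and the wild-type memory libraries 3. At equal scaling the ratio was 15.5 (95% exact interval 4.95 to 78.1, for counting error only). All wild-type values lay below the level that 3 reads are worth in their library (1.89 to 3.87), and all Dock2-deficient values above theirs (2.55 to 5.33).

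Among Dock2-deficient memory libraries, Tmie was 10.7 in the female-reading library 1 and 7.08 to 15.5 in the 4 male-reading ones. With all wild-type libraries reading as female, sex and genotype cannot be fully told apart. With a term for sex the log2 fold change was 2.77 (adjusted p = 0.117), so the call was lost. Among female-reading libraries alone the difference was 2.95, a value that rests on 1 Dock2-deficient library. With 0.1 or 10 added to the values in place of 1 it was 4.80 or 0.94. Without the 2 libraries that stood apart the call held, as it did without any single library (adjusted p up to 0.00287 in limma). Leaving out a naive library could not move the log2 fold change between the memory groups. Of other naive cell genes, Ccr9, a gut-homing receptor, averaged 6.70 ± 3.85 in Dock2-deficient and 2.35 ± 2.17 in wild-type memory cells, and Itgae, the integrin chain CD103, 3.34 ± 3.49 and 13.96 ± 13.2 (SD, n = 5 and 4). The NK cell markers summed to 12.3 to 34.5 in Dock2-deficient and 24.5 to 49.8 in wild-type memory libraries, the B cell markers to 6.94 to 18.9 and 0 to 41.3, and the thymocyte markers to 1.72 to 3.80 and 0 to 2.99. Their part in the Tmie difference was not tested.

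Igfbp4 and Ggt1 differed between the memory groups in opposite directions without passing. Igfbp4 averaged 14.3 ± 6.24 in Dock2-deficient memory cells (SD, n = 5) and 29.5 ± 14.04 in wild-type memory cells (SD, n = 4; -0.98 ± 0.33, SE, adjusted p = 0.238). Ggt1 averaged 33.4 ± 9.47 in Dock2-deficient and 18.01 ± 11.7 in wild-type memory cells (1.06 ± 0.36, adjusted p = 0.238), close to its difference in naive cells. Rgcc and Ramp1 had 95% intervals of -0.40 to 0.71 and -0.47 to 0.62, so that a change of 2-fold in either direction lay outside both. Over the 8 genes the median log2 difference was -0.11 in naive and 0.11 in memory cells, against 0.00 and 0.01 over all tested genes.

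**Figure D3:**
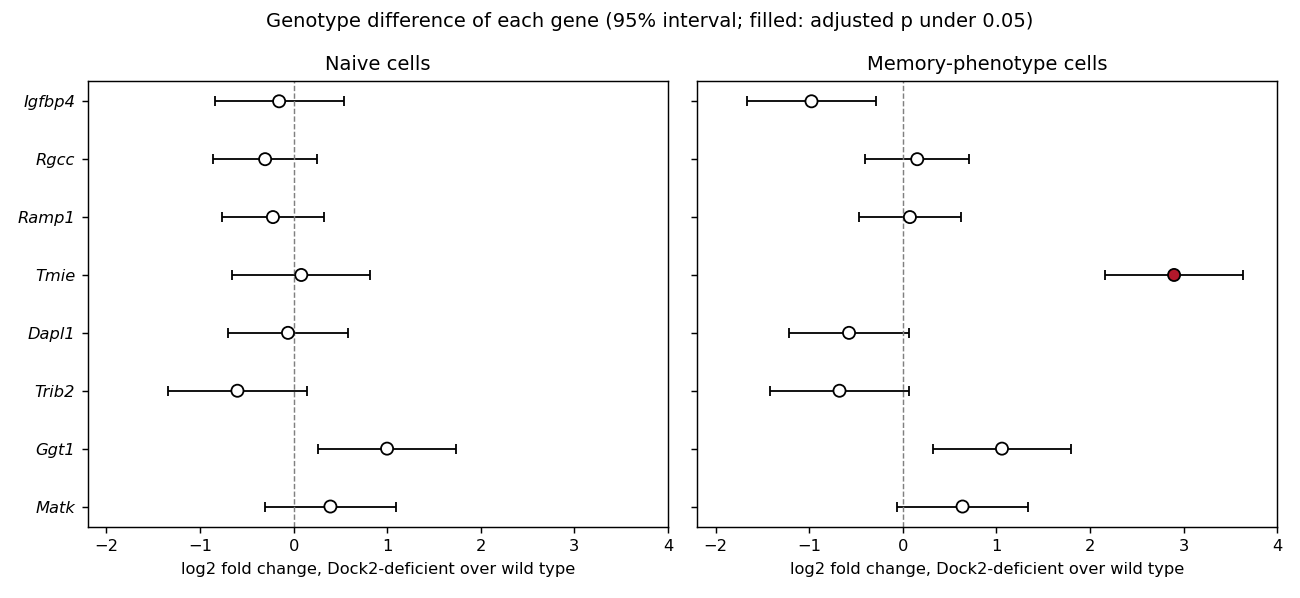
Log2 fold change of Dock2-deficient over wild-type cells for each gene in naive cells (left) and memory-phenotype cells (right), with the 95% interval from limma and filled points for an adjusted p under 0.05. Tmie in memory cells, at 2.90, is the filled point, and the Ggt1 points sit at 0.999 and 1.06.

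The difference between the 2 memory changes (the interaction) asks whether a gene fell by more in a genotype. For Tmie it was 2.82 ± 0.50 on the log2 scale (SE), a smaller fall in Dock2-deficient mice, at an adjusted p = 0.0495 in limma, next to the threshold, and 3 of 9437 genes passed (0.0318%). This call was kept in 5 of 29 alternative fits and lost in 24 (adjusted p up to 0.817), 17 of which left out a single library, while the direction held in all 29. It also depends on the 1 added to each value, since wild-type memory libraries lay near 0: the interaction was 4.71 with 0.1 added and 0.87 with 10 added. For the other 7 genes the interaction ran between -0.82 (Igfbp4) and 0.46 (Rgcc), with adjusted p of 0.819 or higher.

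Tmie and Ggt1 have close neighbours on the chromosome that were read beside them, a choice made after the values of the 8 genes were seen. Als2cl, which encodes a protein related to the guanine exchange factor alsin, is transcribed from the opposite strand (chromosome 9, 110879870 to 110900530), and its first 244 bases overlap the start of Tmie. The libraries do not mark strand, so reads from these bases cannot be assigned to either gene. Als2cl averaged 234 ± 82.8 in Dock2-deficient memory and 802 ± 280 in Dock2-deficient naive libraries (SD, n = 5 each), and 239 ± 88.5 in wild-type memory and 765 ± 126 in wild-type naive libraries (SD, n = 4 each). It fell in memory cells of both genotypes in limma (-1.81 ± 0.31, adjusted p = 9.34e-04, and -1.72 ± 0.34, adjusted p = 0.00465). Between genotypes it did not pass in memory cells (-0.07 ± 0.32, adjusted p = 0.921), where Tmie did.

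Ggt1 lies between Lrrc75b and Ggt5, at 1274 and 3140 bases. Ggt5, a related enzyme that acts on glutathione conjugates such as leukotriene C4, averaged 2.22 ± 1.30 in Dock2-deficient memory and 14.5 ± 6.14 in Dock2-deficient naive libraries (SD, n = 5 each), and 4.19 ± 3.16 in wild-type memory and 28.6 ± 7.77 in wild-type naive libraries (SD, n = 4 each). It fell in both genotypes (-2.33 ± 0.49, adjusted p = 0.00782, and -2.65 ± 0.55, adjusted p = 0.00729). In naive cells Ggt5 and Ggt1 went opposite ways between genotypes, but the Ggt5 difference did not pass (-0.99 ± 0.52, adjusted p = 0.86). Lrrc75b, a leucine-rich repeat gene, averaged 15.3 ± 8.03 in Dock2-deficient memory and 42.0 ± 19.7 in Dock2-deficient naive libraries, and 3.17 ± 2.64 in wild-type memory and 25.1 ± 4.99 in wild-type naive libraries. It fell in wild type (-2.94 ± 0.54, adjusted p = 0.00214) and did not pass in Dock2-deficient mice (-1.47 ± 0.48, adjusted p = 0.134), a difference that itself did not pass (1.48 ± 0.72, adjusted p = 0.819). Of the 11 tested genes within 50000 bases of any of the 8, Als2cl and Ggt5 were lower in Dock2-deficient memory cells (1.05% of all tested genes were), and these 3 in wild-type memory cells (0.646% of all tested genes were).

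**Figure D4:**
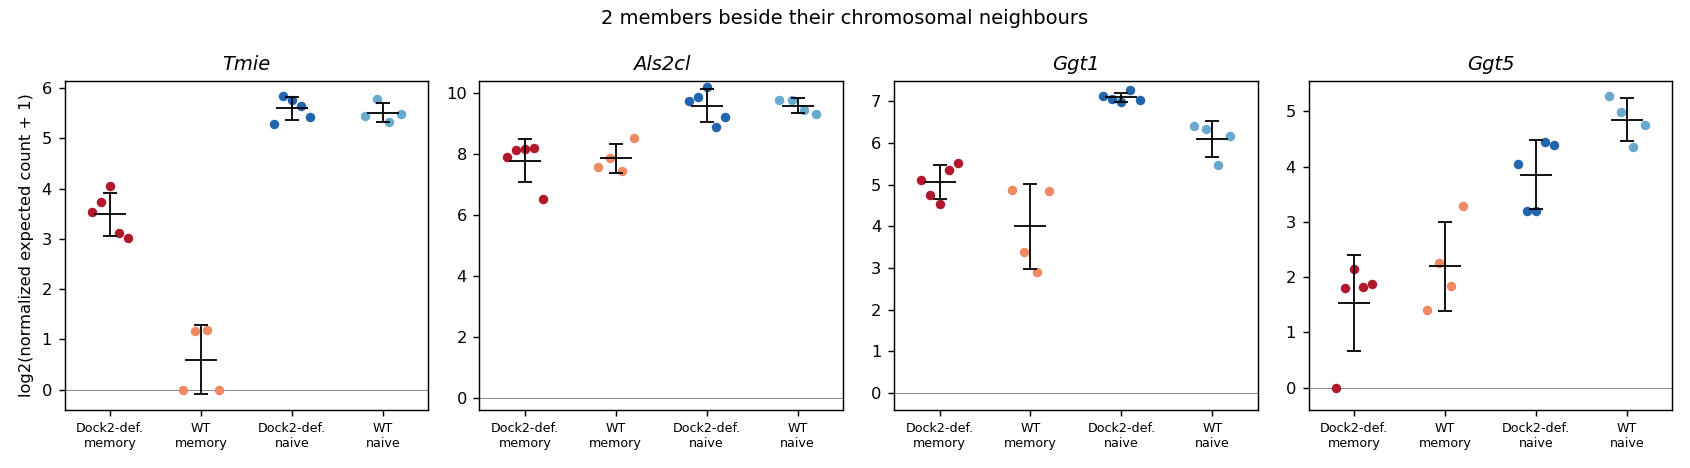
Levels of Tmie and Ggt1 beside their neighbours Als2cl and Ggt5 on a log2 axis (normalized expected count + 1), with 1 point per library and the mean ± SD of the log2 values. The memory groups overlap for Als2cl and not for Tmie, and the naive groups lie apart for Ggt1 with Dock2-deficient libraries the higher.

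Other genes resembled the 8 across the 18 libraries, judged by the root mean square (RMS) difference between log2 profiles centred on their mean. Genes near the average profile of the 8 included Rcn3, a calcium-binding protein of the endoplasmic reticulum, with an RMS difference of 0.64, against a median of 1.47 over the candidate genes. Rcn3 averaged 33.7 in Dock2-deficient memory and 124 in Dock2-deficient naive cells, and 31.4 in wild-type memory and 85.95 in wild-type naive cells. Others were Abca3, a lipid transporter, Sepp1, a selenium carrier, Als2cl, Tgtp1, H2-DMa, a chaperone of MHC class II loading, the phosphoinositide phosphatases Inpp4b and Inpp4a, and Tdrp (0.64 to 0.88). Tgtp1 has a near-identical copy, so its value is uncertain. Gene by gene, Itgae was closest to Igfbp4 (0.93) and Abca3 to Trib2 (0.57), and Abca3 was also near Rgcc (0.94) and Ramp1 (0.74). Rcn3 was closest to Dapl1 and Matk (0.53 each), and H2-DMa to Ggt1 (0.61). The profile of Tmie had no such close match (St8sia1, a sialyltransferase, at 1.32). Among the 8 the closest were Rgcc and Ramp1 (0.38), and the most distant Igfbp4 and Tmie (1.62).

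Of the other genes linked to naive and resting T cells, 23 were listed and tested. In Dock2-deficient mice 3 were lower in memory cells and none higher, against 1.05% and 1.77% of all tested genes (Itgae by -6.05, Ccr9 by -5.43 and Lef1 by -0.86), and in wild type 5 were lower and none higher, against 0.646% and 1.88% of all tested genes (Ccr9 by -7.04, Itgae by -4.52, Ccr7 by -1.002, Foxo1 by -0.93 and Lef1 by -0.92). Their median log2 fold changes were -0.41 and -0.20. Tcf7, the transcription factor TCF-1, averaged 714 in Dock2-deficient memory and 792 in Dock2-deficient naive cells, and 555 in wild-type memory and 644 in wild-type naive cells. None of the 23 differed between genotypes in either cell state by limma.

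For Igfbp4, Rgcc and Tmie, few partners were measured well enough to be tested. Of the insulin-like growth factor list around Igfbp4, 3 of 17 were tested (the receptors Insr and Igf2r and the adaptor Irs2) and none passed, while Igf1r, the receptor from which Igfbp4 withholds its ligands, averaged 7.02 or less in each group. Of the genes around Rgcc, 3 of 9 were tested and none passed, and Cdk1, the kinase Rgcc binds, averaged 3.58 or less. None of the 6 hair cell partners of Tmie passed the filter, and Tmc1 and Tmc2, the channel proteins, averaged at most 0.199. Of 15 genes of glutathione metabolism 8 were tested, and Ggt5 was the gene that passed, in both memory comparisons.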

How the data were processed

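Smartseq2 libraries, whose full-length cDNA keeps no record of strand, were prepared from RNA purified with a Qiagen RNAeasy kit, per the labels' protocols. The submitters' processing notes name mm10, RSEM, bcl2fastq and FastQC. Their versions and settings and the annotation used were not given in those notes. The authors deposited a normalized signal per gene, RSEM expected counts scaled between libraries. All values (100%) lay on a grid of 0.01 reads, and 59.5% to 69.3% of those above 0 were whole reads within 0.005, so depth and reads were read back but no count model was run. Groups came from the sample titles. Whether each replicate is its own animal is not stated in the labels; p-values therefore reflect only the spread between these libraries, which may be technical.

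The genes that reached 10 in 4 or more libraries were tested by limma 3.58.1 (R 4.3.3), after adding 1 and taking log2, with 1 mean per group over 18 libraries (14 residual and 6.43 prior degrees of freedom), two-sided, with Benjamini-Hochberg adjustment over all 9437 genes and a threshold of 0.05. The script was tested on simulated data. Gene positions and exon lengths came from GENCODE M21 on mm10, which held 98.9% of the identifiers. The members and lists were chosen with earlier results of these data known. Named besides the 8 were the 2 genes nearest each member and the 10 nearest their average among tested genes with a mean of at least 50, without unnamed models, pseudogenes and receptor segments, and up to 4 called genes of each list. Some genes that this rule names are not reported here. In the naive list Lef1 exceeded that number and was named to complete a count of 5; Igf1r, Cdk1, Tmc1, Tmc2, Csk, Calcrl and Dntt, and Als2cl, Ggt5 and Lrrc75b as neighbours, were chosen after their values were seen. Python 3.11.15 with numpy 2.4.6, pandas 2.3.3 and matplotlib 3.10.9 was used for tables and plots.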

Additional observations from a re-analysis of the deposited data

Results flagged for a closer look

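In 32 sets of libraries (8 genes in 4 groups), 2 held a library far from the others by Dixon's test, and chance alone marks about 1 in 20 sets. Rgcc was 19.5 in Dock2-deficient memory library 1, against 9.36 to 12.03 in the other 4. Ramp1 was 8.64 in Dock2-deficient memory library 2, against 17.2 to 20.3 in the other 4.

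The fall of Tmie in memory cells differed between the genotypes by 2.82 on the log2 scale in limma's test of the interaction (adjusted p = 0.0495, and 0.0136 to 0.817 over 29 alternatives). Tmie averaged 10.6 in Dock2-deficient memory and 0.637 in wild-type memory libraries. The gene was chosen by its fall in memory cells, so this p-value is not free of that choice.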

How the results depend on the processing

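The memory against naive direction of all 8 genes held in every alternative run, in both genotypes, a direction that their choice fixed. Among genotype tests, Tmie in memory cells was called in 28 of the 30 alternatives that tested it. Not all of these could move its log2 fold change. It stayed at 2.90 in every fit without a naive library, with no filter and with the random replicate block. The number of the 8 genes called there, 1, was 0 with a term for sex, with female-reading libraries alone (chosen after seeing the data), with a filter of at least 50 in at least 4 libraries and with the compared libraries alone; under the last 2, Tmie fell below the filter and was not tested. For the interaction, 1 gene was called, and 0 with 0.1 or 10 added to the values, with no filter, with the filter of 50, with equal totals without Rn18s-rs5, without the 2 libraries that stood apart, with a term for sex, with the replicate number as a fixed block, and in 17 of 18 fits without a single library (0 to 1). The causes were not tested. Scaling to equal totals without Rn18s-rs5 moved the median of all genes by -0.31 in Dock2-deficient memory against naive cells, by -0.24 between memory groups and by -0.26 in the interaction. It turned 167 higher and 99 lower genes in that memory comparison into 95 and 169. Over all tested genes, the number called was 3 to 19 in naive and 0 to 40 in memory cells between genotypes (13 and 5 as reported), 0 to 5 in the interaction (3), and 185 to 450 and 140 to 377 for memory against naive cells in Dock2-deficient mice (266) and wild type (238). Same-numbered memory and naive libraries of a genotype did not deviate together in a regular way (r between -0.253 and 0.303). The main fit did not take the numbers as pairs. Dock2-deficient library 1 was the female-reading one in both cell states, so the numbers may still mark shared animals, which the labels do not state. With the random replicate block 0, 1 and 1 of the 8 genes were called in the naive, memory and interaction tests. Depth limits Tmie most, with 0 to 2 reads per wild-type memory library.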

Other observations

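Among naive libraries the members did not all rank the same way. Dock2-deficient naive libraries 4 and 5 were the highest of their group for Igfbp4, Rgcc, Ramp1 and Dapl1, an order held by 17.0% of the tested genes. Wild-type naive libraries 3 and 4 were the highest of theirs for Igfbp4, Rgcc and Dapl1 (20.4% of tested genes), and libraries 1 and 2 for Ramp1, Trib2, Ggt1 and Matk (21.6%). Igfbp4 was thus 511 and 484 in Dock2-deficient naive libraries 4 and 5, against 261 to 355 in libraries 1 to 3. Trib2 was 210 and 168 in wild-type naive libraries 1 and 2, against 110.4 and 107 in libraries 3 and 4. The labels name no batch. In the sample descriptions, however, the sample numbers of Dock2-deficient naive libraries 4 and 5 form a run apart from those of libraries 1 to 3. Those of the wild-type naive libraries follow one another without a break. What the sample numbers stand for is not stated, and their part in these orders was not tested.

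Dntt, a thymocyte gene that adds bases to receptor junctions, averaged 1.19 in Dock2-deficient memory and 4.70 in Dock2-deficient naive libraries, and 0.737 in wild-type memory and 9.57 in wild-type naive libraries. The recombinase gene Rag1 was listed at 0 in all 18 libraries.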
